A study of Homo sapiens with 12 samples.

Results

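The 10 genes described here encode cell surface proteins that have been pursued as antibody, CAR or checkpoint targets in acute myeloid leukemia (AML), namely CD33, CLEC12A, LILRB4, HAVCR2, CD47, CD38, IL3RA (CD123), CD44, CD70 and CD99. They were taken as known targets, with earlier results of these data in view, and were matched by symbol to 10 of the 43876 Ensembl gene identifiers in the table. RNA was measured by RNA-seq in MV4-11, a human AML line with an internal tandem duplication of FLT3 (FLT3-ITD) and a rearranged KMT2A gene, although the labels give the genotype as wild-type. Of the 12 libraries, 3 came from cells given DMSO, 3 from mitoxantrone-liposome at 20 nM (Mito-Lipo), 3 from gilteritinib, a FLT3 inhibitor, at 25 nM, and 3 from the combination of mitoxantrone-liposome at 20 nM with gilteritinib at 20 nM (Com). All were collected at 24 h. Gilteritinib was thus lower in Com than alone, so comparisons that set Com against Gilteritinib do not compare equal doses. It is 1 cell line, and the labels do not say whether replicates 1, 2 and 3 were separate cultures, so p-values measure the spread between these libraries. The values were FPKM, fragments scaled by gene length and library depth, as the authors deposited them.

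AML blasts carry proteins of the myeloid lineage on their surface, such as the sialic acid binding lectin CD33 and the C-type lectin CLEC12A. Antibodies and engineered T cells use them as addresses, and a second class of targets, such as CD47 and LILRB4, restrains macrophages or T cells. RNA is a step before the protein on the cell surface, which was not measured.

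The libraries held 31725048 to 41330590 fragments, as recovered from the steps between low FPKM values. The replicate 1 libraries stood apart from replicates 2 and 3. In a limma fit of condition and replicate number, 38.3% of the 18574 genes tested differed between replicate 1 and the mean of replicates 2 and 3 at an adjusted p under 0.05. For this reason the main results are given for all replicates and for replicates 2 and 3 only. Of 12 myeloid markers, 10 passed the filter on low values, which asks for 1 FPKM or more in 3 libraries or more, among them LYZ (490 to 1333 FPKM) and SPI1 (59.8 to 108 FPKM), while CD14 reached 0.264 and CD68 0.196 FPKM at most. FLT3 was at 132 to 171 FPKM, and T cell markers stayed at or under 0.0707 FPKM, but the NK cell marker NKG7 (8.19 to 13.0 FPKM) was detected. In bulk RNA, fewer cells with a transcript and less of it per cell cannot be told apart.

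Levels of the 10 genes spanned a wide range. CD44, the hyaluronan receptor, had a higher mean than 98.3% of the genes tested, CD33 than 84.9%, CD47 than 76.7%, CD38 than 74.1%, CD70 than 73.7% and CLEC12A than 38.5%. These 6 genes passed the filter. HAVCR2 (TIM-3) and LILRB4 did not, and IL3RA and CD99 were listed at or near 0. In DMSO the order by mean FPKM was CD44, CD33, CD47, CD38, CD70, CLEC12A, HAVCR2 and LILRB4. CD47 (14.4 to 16.5 FPKM) and CD38 (9.78 to 18.0 FPKM) overlapped in DMSO, as did CD38 and CD70 (8.07 to 10.1 FPKM), and LILRB4 and HAVCR2. FPKM depends on the gene length used. CLEC12A gave whole fragments at 1681 nucleotides, against 3250 nucleotides for its GENCODE exons together, so its FPKM depends on which length was used. The same held for CD33 (4728 against 5975), CD47 (6796 against 8225) and CD38 (5620 against 6855). It held also for CD70 (911 against 1532), HAVCR2 (2237 against 3804) and LILRB4 (4001 against 6328). The order of the genes therefore rests on the lengths used.

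**Figure D1:**
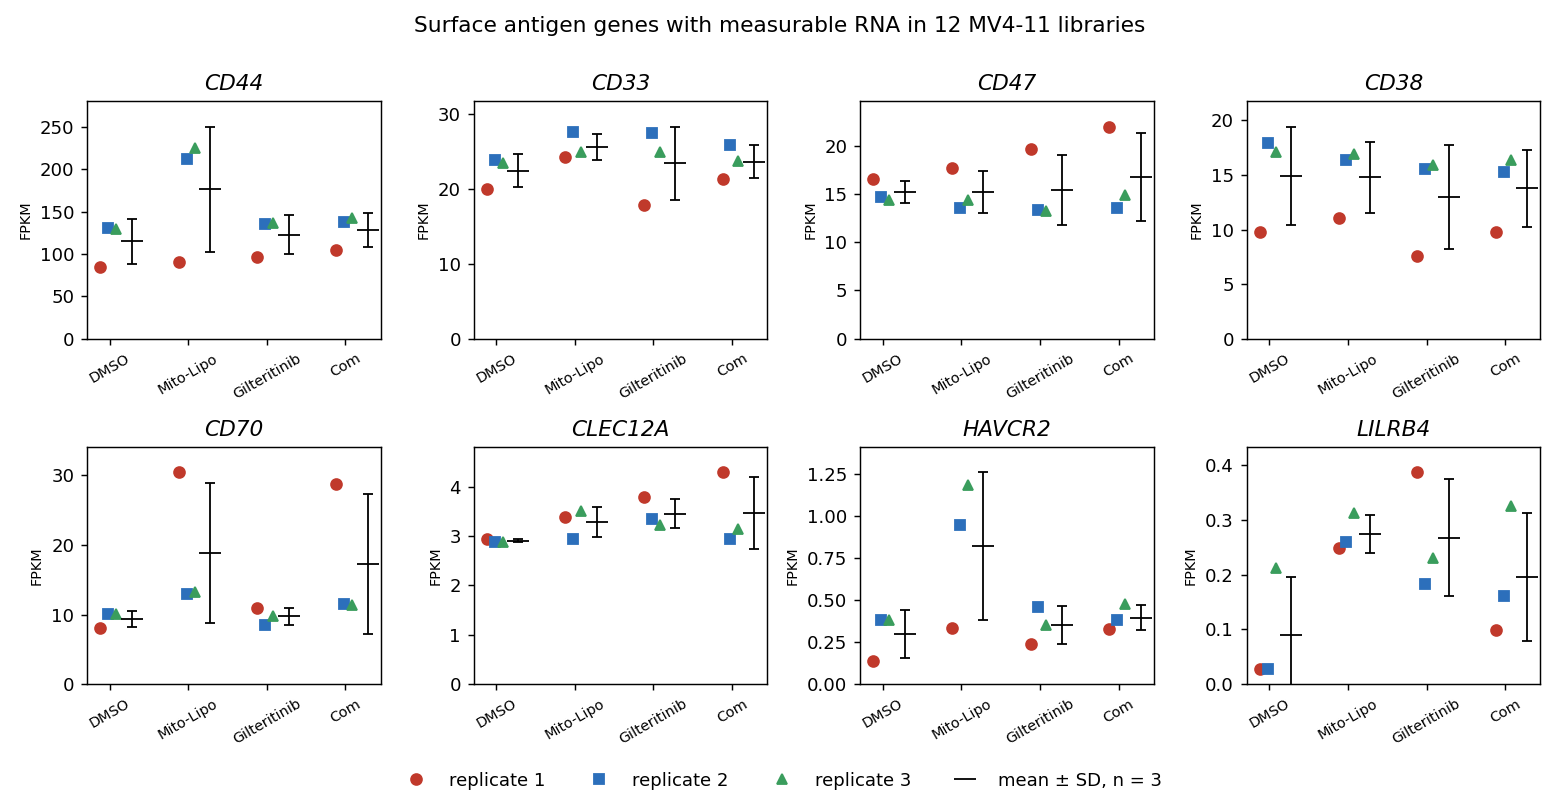
FPKM of 8 surface antigen genes (vertical axes from 0, each on its own scale) in the 12 libraries by condition, with a symbol for each replicate number and the mean ± SD of 3 libraries beside them; the lower bar of LILRB4 in DMSO is cut at 0. Replicate 1 lies below replicates 2 and 3 for CD44 and CD38 in every condition and above them for CD47, and CD70 is high in replicate 1 of Mito-Lipo and Com.

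CD33, an inhibitory Siglec receptor that internalises when bound by antibody, lies on chr19:51225064-51243860 (GRCh38, plus strand). It was at 20.0, 23.9 and 23.5 FPKM in replicates 1, 2 and 3 of DMSO and at 24.3, 27.6 and 25.0 FPKM in Mito-Lipo. Each Mito-Lipo library was above each DMSO library. In Gilteritinib it was at 17.9, 27.4 and 24.9 FPKM and in Com at 21.4, 25.8 and 23.8 FPKM, and both overlapped DMSO. The Mito-Lipo mean of 25.6 ± 1.74 FPKM (SD, n = 3) was 1.14 times the DMSO mean of 22.5 ± 2.16 (SD, n = 3), and the log2 difference of 0.18 (SE 0.14) did not pass the test (limma, adjusted p = 0.838). Log2 differences, here and below, are on the log2(FPKM + 1) scale, which understates changes of genes at low FPKM, while ratios of means are of plain FPKM. In replicates 2 and 3 alone, the difference was 0.14 (limma, adjusted p = 0.320).

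CLEC12A (chr12:9951316-9995694, plus strand) encodes an inhibitory C-type lectin receptor found on myeloid cells and AML blasts. It was at 2.94, 2.88 and 2.89 FPKM in DMSO, at 3.39, 2.94 and 3.51 in Mito-Lipo, at 3.79, 3.35 and 3.22 in Gilteritinib and at 4.30, 2.95 and 3.14 in Com. In all 3 treatments the libraries lay above those of DMSO, in replicate 2 of Mito-Lipo and of Com by a small margin. The log2 differences from DMSO were 0.13 in Mito-Lipo, 0.19 in Gilteritinib and 0.18 in Com, each with an SE of 0.12, and none passed the test (limma, adjusted p = 0.879, 0.9999 and 1). When replicate 1 was left out of each condition they were 0.12, 0.14 and 0.06 (limma, adjusted p = 0.545, 0.651 and 0.970).

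LILRB4 (chr19:54643889-54670359, plus strand), an inhibitory immunoglobulin-like receptor of monocytic cells, was at the edge of detection. Its FPKM was 0.028, 0.028 and 0.212 in DMSO, which are 4, 4 and 28 fragments, and the exact 95% Poisson interval of 4 fragments, which covers counting error only, runs from 1.09 to 10.2. Mito-Lipo was at 0.248, 0.260 and 0.313 FPKM, Gilteritinib at 0.387, 0.183 and 0.231, and Com at 0.099, 0.161 and 0.325. Mito-Lipo did not overlap DMSO, whereas the other treatments did. In a fit without the filter, LILRB4 differed from DMSO by 0.23 (SE 0.09) in Mito-Lipo and 0.22 (SE 0.09) in Gilteritinib, with unadjusted limma p of 0.0273 and 0.0332 and adjusted p of 0.660 and 1. Within replicate numbers its Mito-Lipo to DMSO ratio was 8.95, 9.42 and 1.47, and with replicates 2 and 3 only the log2 difference was 0.20 (limma, adjusted p = 0.503). The LILR relatives followed were low as well. LILRB3 reached 0.239 FPKM at most, LILRA2 0.0949, LILRB2 0.026 and LILRB1 0.0213, while the related LAIR1 was at 1.18 to 2.11 FPKM. Whether the low level of LILRB4 lies in the cells or in how reads were assigned among these paralogs was not tested.

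HAVCR2 (chr5:157085832-157142869, minus strand) encodes TIM-3, a checkpoint receptor also used to mark leukemic stem cells. It was at 0.136, 0.383 and 0.380 FPKM in DMSO and at 0.332, 0.944 and 1.19 in Mito-Lipo. Replicate 1 of Mito-Lipo lay below replicates 2 and 3 of DMSO, so the groups overlapped, but within each replicate number Mito-Lipo was higher, by 2.44, 2.46 and 3.12 times. Gilteritinib was at 0.238, 0.462 and 0.354 FPKM and Com at 0.330, 0.380 and 0.477 FPKM. These values rest on 11 to 106 fragments per library. Without the filter, the log2 difference of Mito-Lipo from DMSO was 0.46 (SE 0.17; limma, unadjusted p = 0.0205, adjusted p = 0.630), and with replicates 2 and 3 only it was 0.58 (adjusted p = 0.05004). Com against Mito-Lipo gave ratios of 0.99, 0.40 and 0.40 in replicates 1, 2 and 3, and a log2 difference of -0.35 (limma, adjusted p = 0.888), or of -0.53 in replicates 2 and 3 (adjusted p = 0.0611).

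CD47 (chr3:108043094-108091862, minus strand) encodes the ligand of SIRPA that restrains phagocytosis. It was at 16.5, 14.6 and 14.4 FPKM in DMSO, at 17.7, 13.6 and 14.3 in Mito-Lipo, at 19.7, 13.3 and 13.3 in Gilteritinib and at 22.0, 13.5 and 14.9 in Com. Every condition overlapped every other. The log2 difference from DMSO was -0.0068 (SE 0.19) in Mito-Lipo, -0.00020 in Gilteritinib and 0.11 in Com, and none passed the test (limma, adjusted p = 0.998, 0.9999 and 1). With replicates 2 and 3 only they were -0.055, -0.12 and -0.033 (limma, adjusted p = 0.638, 0.492 and 0.970), so the sign in Com turned.

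CD38 (chr4:15778275-15853230, plus strand) encodes a surface enzyme that consumes NAD. It was at 9.78, 18.0 and 17.1 FPKM in DMSO, at 11.1, 16.3 and 17.0 in Mito-Lipo, at 7.53, 15.6 and 15.9 in Gilteritinib and at 9.75, 15.2 and 16.4 in Com. Gilteritinib was lower than DMSO in all 3 replicate numbers although the groups overlapped. The log2 difference was -0.21 (SE 0.31; limma, adjusted p = 0.9999), and in the fit blocked by replicate number its unadjusted p was 0.0398. In replicates 2 and 3 alone the difference was -0.15 (limma, adjusted p = 0.336). Mito-Lipo and Com overlapped DMSO, with log2 differences of 0.0070 and -0.096 (limma, adjusted p = 0.999 and 1), or of -0.070 and -0.14 without replicate 1 of any condition (adjusted p = 0.502 and 0.588).

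CD44 (chr11:35138870-35232402, plus strand), which binds hyaluronan in the niche, was at 84.5, 131 and 130 FPKM in DMSO and at 91.1, 213 and 226 FPKM in Mito-Lipo. Replicates 2 and 3 of Mito-Lipo lay above all other libraries, and replicate 1 did not. Gilteritinib was at 96.5, 135 and 137 FPKM and Com at 105, 138 and 143 FPKM, which overlapped DMSO. Within replicate numbers, Mito-Lipo was 1.08, 1.63 and 1.74 times DMSO, and Com was 1.15, 0.65 and 0.63 times Mito-Lipo. Over all replicates, the Mito-Lipo mean of 176 ± 74.2 FPKM (SD, n = 3) against 115 ± 26.4 (SD, n = 3) gave a log2 difference of 0.53 (SE 0.32), which did not pass the test (limma, adjusted p = 0.749). When replicate 1 was left out of each condition, CD44 rose in Mito-Lipo by 0.74 (limma, adjusted p = 0.000556) and was lower in Com than in Mito-Lipo by a log2 difference of -0.64 (adjusted p = 0.000949). In those replicates the interaction, which is the Com to Gilteritinib difference less the Mito-Lipo to DMSO difference, was -0.70 (limma, adjusted p = 0.00293), against -0.46 (adjusted p = 0.9997) over all replicates. Without Mito-Lipo replicate 1, the difference from DMSO was 0.95 and that of Com from Mito-Lipo -0.78.

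CD70 (chr19:6583183-6604103, minus strand), the ligand of the costimulatory receptor CD27, showed the reverse arrangement. It was at 8.07, 10.02 and 10.1 FPKM in DMSO, at 30.5, 12.9 and 13.2 in Mito-Lipo, at 11.0, 8.47 and 9.77 in Gilteritinib and at 28.8, 11.5 and 11.4 in Com. Replicate 1 of Mito-Lipo and of Com were far above all other libraries, and all 3 libraries of each lay above those of DMSO. Within replicate numbers, Mito-Lipo was 3.78, 1.29 and 1.31 times DMSO and Com was 3.57, 1.14 and 1.13 times DMSO. The Mito-Lipo mean of 18.9 ± 10.04 FPKM (SD, n = 3) was 2.01 times the DMSO mean of 9.39 ± 1.14 (SD, n = 3), a log2 difference of 0.83 (SE 0.36) with an unadjusted limma p of 0.0435 and an adjusted p of 0.615. With replicates 2 and 3 only, CD70 rose by 0.35 (limma, adjusted p = 0.0359), and without Mito-Lipo replicate 1 the difference was 0.45. Com differed from DMSO by 0.69 (SE 0.36; limma, adjusted p = 1), or by 0.17 with replicates 2 and 3 only (adjusted p = 0.642) and by 0.26 without Com replicate 1. CD27, its receptor, did not pass the filter, with means from 0.131 to 0.262 FPKM.

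**Figure D2:**
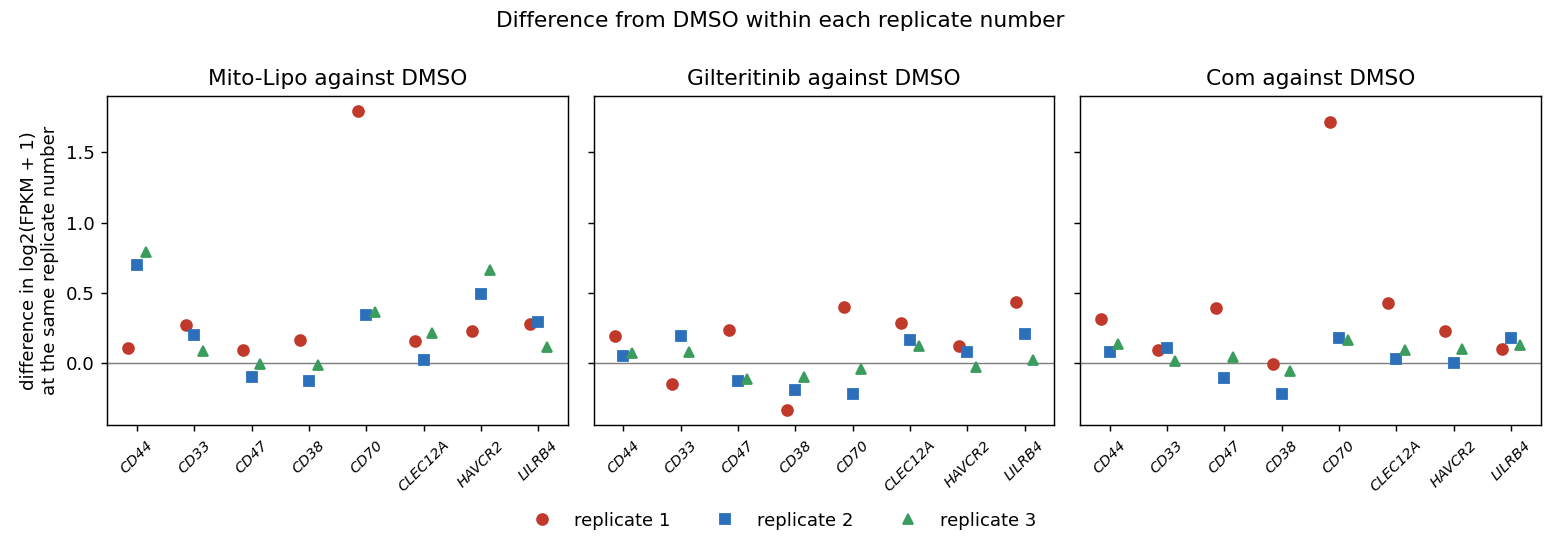
Difference from DMSO in log2(FPKM + 1) at the same replicate number (vertical axis) for 8 genes in Mito-Lipo, Gilteritinib and Com, with 1 symbol per replicate number. CD70 is far higher in replicate 1 than in replicates 2 and 3 of Mito-Lipo and Com, whereas CD44 and HAVCR2 in Mito-Lipo are higher in replicates 2 and 3. As ratios of plain FPKM, HAVCR2 in Mito-Lipo was 2.44, 2.46 and 3.12 times DMSO in replicates 1, 2 and 3.

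Counted together, 0 of the 6 genes that passed the filter were called in Mito-Lipo against DMSO at an adjusted p under 0.05, where 0% of all genes tested were called (limma), and 1, CD70, was under 0.05 unadjusted, against a background of 7.9%. In the fit blocked by replicate number, 2 were, CD44 and CD70, against 15.9%. In replicates 2 and 3 alone, 2 of 6, again CD44 and CD70, were called at an adjusted p under 0.05 against 6.41% of all genes, or 3.08% in the upward direction. The groups did not overlap for 3 of 6, CD33, CLEC12A and CD70, against 13.6% of all genes. Under median-ratio scaling or quantile normalization they did not overlap for 1, against 13.4% and 13.5%.

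In Gilteritinib against DMSO, 0 of 6 were called by limma (background 0%), 0 were under 0.05 unadjusted (1.86%) and 1, CLEC12A, did not overlap (6.57%). With the block 1, CD38, was under 0.05 unadjusted, against 4.96%. In Com against DMSO, 0 of 6 were called (0.00538%, or 1 gene), 0 were under 0.05 unadjusted (1.67%) and 2, CLEC12A and CD70, did not overlap (5.73%), and with the block 1, CD70, was under 0.05 unadjusted (4.35%). In Com against Gilteritinib, 0 of 6 were called (0%), 0 were under 0.05 unadjusted (1.63%), and CD70 alone did not overlap (6.2%). In Com against Mito-Lipo, 0 of 6 were called over all replicates (0%), 0 were under 0.05 unadjusted (5.53%), 0 did not overlap (9.34%) and, with replicates 2 and 3 only, 1, CD44, was called (6.13%). With the block 1, again CD44, was under 0.05 unadjusted (12.2%). The interaction called 0 of 6 (0%) with 0 under 0.05 unadjusted (2.91%), and 1, CD44, with replicates 2 and 3 only (2.97%).

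By replicate number, 4 of the 6 genes differed in the limma fit, against 38.3% of all genes tested. CD38 was lower in replicate 1 than in the mean of replicates 2 and 3 by a log2 difference of -0.74 (SE 0.07, adjusted p = 0.000209), and its replicate 1 libraries (7.53 to 11.1 FPKM) did not overlap replicates 2 and 3 (15.2 to 18.0 FPKM). CD44 was lower by -0.69 (SE 0.12, adjusted p = 0.00252), at 84.5 to 105 FPKM against 130 to 226 FPKM. CD33 was lower by -0.27 (SE 0.06, adjusted p = 0.00967), and its ranges overlapped. CD47 was higher by 0.41 (SE 0.07, adjusted p = 0.00251), at 16.5 to 22.0 FPKM against 13.3 to 14.9 FPKM. Thus 3 of 6 were called lower and 1 higher, while over all genes 12.1% were called lower and 26.3% higher. CD70 differed by 0.60 (adjusted p = 0.0599), HAVCR2 by -0.30 (adjusted p = 0.0552), CLEC12A by 0.16 (adjusted p = 0.127) and LILRB4 by -0.03 (adjusted p = 0.751), and these did not pass. What the replicate number stands for is not stated in the sources used here, and its part in the treatment results was not tested beyond the fits given.

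The stretches upstream of the RefSeq start sites of 3 of the 4 genes that differed by replicate number are shown as far as the first GENCODE exon, so that a reader can see how unlike they are. They are from RefSeq, build GRCh38.p14, written 5′ to 3′ on the strand of the gene, and capitals mark matches on either strand to GGGCGG (a GC box) or GAGGAA (the core of a PU.1 site). CD38 is chr4:15778078-15778274 (plus strand), CD33 is chr19:51224830-51225063 (plus strand), and CD47 is chr3:108091032-108091281 (minus strand), which lies inside the longer GENCODE gene but in no exon of it.
CD38: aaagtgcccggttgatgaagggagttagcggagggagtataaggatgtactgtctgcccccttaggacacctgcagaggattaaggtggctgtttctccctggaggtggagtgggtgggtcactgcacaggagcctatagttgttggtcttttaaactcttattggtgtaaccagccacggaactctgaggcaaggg
CD33: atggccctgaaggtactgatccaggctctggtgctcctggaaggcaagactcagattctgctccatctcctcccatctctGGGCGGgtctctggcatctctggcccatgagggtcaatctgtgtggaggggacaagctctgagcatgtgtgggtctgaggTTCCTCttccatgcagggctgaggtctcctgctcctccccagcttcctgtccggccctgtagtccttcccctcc
CD47: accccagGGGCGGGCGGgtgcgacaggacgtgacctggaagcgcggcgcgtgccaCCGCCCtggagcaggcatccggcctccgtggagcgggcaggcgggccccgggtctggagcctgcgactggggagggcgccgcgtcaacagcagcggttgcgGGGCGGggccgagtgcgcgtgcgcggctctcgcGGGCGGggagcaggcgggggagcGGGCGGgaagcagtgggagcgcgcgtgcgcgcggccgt

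CD47 held 6 matches to GGGCGG in 250 bases with 39 CpG dinucleotides. Of the 35093 RefSeq windows of that length 42.6% held at least 1 match, and their median was 11 CpG. The share of windows with as many as 6 matches was not computed. CD33 held 1 match to GGGCGG and 1 to GAGGAA in 234 bases, where 40.5% and 22% of windows held a match, and had 2 CpG against a median of 10. CD38 held neither in 197 bases, where 34.3% and 18.9% of windows did, and had 3 CpG against a median of 7. TTCNNNGAA, a STAT site, matched in none of the 3, against 5.4% to 6.57% of windows of the same lengths. No matches of different motifs overlapped. The window of CD44 lies within a GENCODE exon and is not shown.

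IL3RA (chrX:1336616-1382689, plus strand), the alpha chain of the interleukin-3 receptor, was listed at 0 in 9 of 12 libraries and reached 0.0197 FPKM at most. CD99 (chrX:2691133-2741309, plus strand), a surface glycoprotein, was listed at 0 in 11 and reached 0.0222 FPKM. Both lie in pseudoautosomal region 1 (PAR1), where X and Y carry the same sequence. Of the 11 protein-coding PAR1 genes in the table, 0 reached an FPKM of 1 in any library, and the highest value, 0.112 FPKM, belonged to SLC25A6, an ADP/ATP carrier that cells use widely. CSF2RA, the alpha chain of the GM-CSF receptor, reached 0.0242 FPKM. By contrast, 4 of the 10 protein-coding X genes next to PAR1 reached FPKM 1, as did 55.7% of 607 other X genes and 61.7% of all 17569 protein-coding genes. No level, fold change or test is therefore given for IL3RA or CD99.

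**Figure D3:**
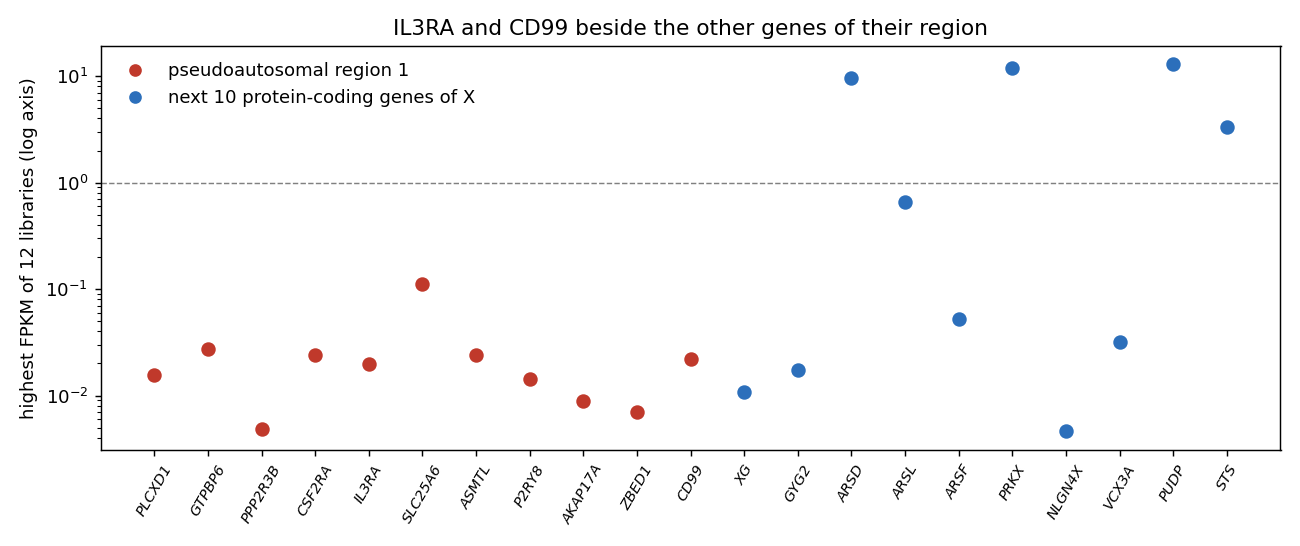
Highest FPKM among the 12 libraries (log axis) of the 11 protein-coding genes of pseudoautosomal region 1 and of the next 10 on X, in order along the chromosome, with a dashed line at FPKM 1. The PAR1 genes, with IL3RA and CD99, stay at or under 0.112 FPKM, whereas ARSD, PRKX, PUDP and STS beside them pass 1.

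Related genes were followed in 4 lists. Apart from direct partners of the members, the genes named had the smallest unadjusted p of their list in a treatment against DMSO or by replicate number. PILRA, MMP14, TNFSF10 and CD82 were picked so in Mito-Lipo against DMSO. Their small p and separate groups there follow in part from that choice. The first list held 21 ligands, receptors and coreceptors of the antigens, of which 13 passed the filter. SIRPA, the receptor of CD47 on phagocytes, was at 24.3, 38.7 and 39.9 FPKM in DMSO and at 32.3, 41.8 and 44.5 FPKM in Mito-Lipo. These groups overlapped, and the log2 difference was 0.22 (limma, adjusted p = 0.903), or 0.13 with replicates 2 and 3 only (adjusted p = 0.125). LGALS9, a ligand of TIM-3, had a mean of 27.7 FPKM in DMSO and 30.8 FPKM in Mito-Lipo (log2 difference 0.15, adjusted p = 0.832, or 0.0075 and 0.945 for replicates 2 and 3). PILRA, an inhibitory receptor of myeloid cells that can bind CD99, was at 2.096, 1.76 and 2.08 FPKM in DMSO and at 2.48, 4.09 and 3.15 in Mito-Lipo. Those groups did not overlap, and the log2 difference of 0.49 had an unadjusted limma p of 0.00619 and an adjusted p of 0.492. When replicate 1 was left out of each condition it was 0.66 (limma, adjusted p = 0.0523). CSF2RB, the chain that IL3RA pairs with, had means of 7.53 to 9.73 FPKM over the 4 conditions and differed from DMSO by 0.18 in Mito-Lipo (limma, adjusted p = 0.820) and by -0.13 in Gilteritinib (adjusted p = 0.9999). For replicates 2 and 3 these were 0.043 and -0.13 (limma, adjusted p = 0.759 and 0.501).

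Of 27 genes that signal for or process the antigens, 22 passed the filter. MMP14, a membrane protease that can cut CD44, was at 23.9, 30.6 and 31.5 FPKM in DMSO and at 35.0, 40.5 and 38.5 FPKM in Mito-Lipo. All 3 Mito-Lipo libraries were above DMSO, with a log2 difference of 0.40 (limma, adjusted p = 0.474), and with replicates 2 and 3 only it rose by 0.34 (adjusted p = 0.0122). QPCTL, the enzyme that modifies CD47 so that SIRPA can bind, had means of 11.7 to 13.8 FPKM, and its difference from DMSO did not pass in any treatment. PTPN6 (SHP-1), the phosphatase that inhibitory receptors such as CD33 and LILRB4 recruit, was at 98.4, 127 and 131 FPKM in DMSO and at 113, 158 and 154 FPKM in Mito-Lipo. The log2 difference was 0.24 (limma, adjusted p = 0.792), and with replicates 2 and 3 only it rose by 0.27 (adjusted p = 0.0122). The lipid phosphatase INPP5D had means of 1.14 to 1.46 FPKM, and the kinase LYN was at 26.8 FPKM in DMSO and 29.3 FPKM in Com (log2 difference 0.13, limma adjusted p = 1, or 0.029 and 0.967 for replicates 2 and 3). SOCS3, an inhibitor of cytokine signalling, was lower in replicate 1 than in replicates 2 and 3 by -0.64 (adjusted p = 0.000358). Its Mito-Lipo difference from DMSO was 0.53 (limma, adjusted p = 0.701), and for replicates 2 and 3 it rose by 0.60 (adjusted p = 0.0319).

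Among 48 family relatives, 13 passed the filter. TNFSF10 (TRAIL), like CD70 a member of the TNF ligand family, was at 1.92, 1.62 and 2.02 FPKM in DMSO and at 3.21, 2.97 and 3.08 FPKM in Mito-Lipo. The groups were well apart, and the log2 difference of 0.52 (SE 0.11) had an unadjusted limma p of 0.000574 and an adjusted p of 0.397, and it was the same, 0.52, with replicates 2 and 3 only (adjusted p = 0.0555). TNFSF13B (BAFF), another relative of CD70, was higher in replicate 1 by 0.63 (limma, adjusted p = 0.0010), and its Mito-Lipo difference from DMSO was 0.22 (adjusted p = 0.933), or 0.26 for replicates 2 and 3 (adjusted p = 0.171).

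Of 43 other AML surface antigens, 28 passed. CD82, a tetraspanin, was at 11.3, 11.7 and 11.7 FPKM in DMSO, at 17.1, 19.7 and 21.1 in Mito-Lipo, at 13.1, 13.3 and 12.9 in Gilteritinib and at 16.5, 14.0 and 13.2 in Com. Every treated library was above every DMSO library. The log2 difference in Mito-Lipo was 0.69 (SE 0.09; limma, adjusted p = 0.177), and with replicates 2 and 3 only CD82 rose by 0.75 (adjusted p = 0.00142) and was lower in Com than in Mito-Lipo by -0.55 (adjusted p = 0.00466). IL1RAP, a coreceptor of interleukin-1, was at 37.3, 55.0 and 54.1 FPKM in DMSO and at 41.0, 76.9 and 80.5 in Mito-Lipo, overlapping, with a log2 difference of 0.39 (limma, adjusted p = 0.868), which with replicates 2 and 3 only was a rise of 0.52 (adjusted p = 0.00287). It was lower in replicate 1 by -0.82 (adjusted p = 0.000157). MUC1, a mucin, had a mean of 1.02 FPKM in DMSO and of 0.639 FPKM in Gilteritinib (log2 difference -0.30, limma adjusted p = 0.9999, or -0.28 and 0.387 for replicates 2 and 3).

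In Mito-Lipo against DMSO, 0 genes of each list were called by limma over all replicates, and at an unadjusted p under 0.05 there were 2 higher and 1 lower of 13 partners, 3 higher of 22 signalling and processing genes, 2 higher of 13 relatives, and 7 higher and 1 lower of 28 other antigens, beside 7.9% of all genes in either direction. The median log2 differences were 0.18, 0.09, 0.22 and 0.21 in that order and 0.16 for the 6 antigen genes, against 0.03 over all genes tested. With replicates 2 and 3 only, 13 of the 28 other antigens were called higher and 2 lower in Mito-Lipo, against 6.41% of all genes called, and in Com against Mito-Lipo 12 were called lower and 0 higher, against 6.13%. In the same fits the partners had 2 called higher and 1 lower in Mito-Lipo and 1 higher and 2 lower in Com against Mito-Lipo. The signalling and processing genes had 4 higher and 0 lower, then 0 higher and 4 lower, and the relatives 2 higher and 2 lower in each. These 2 comparisons share the Mito-Lipo libraries. Between replicate 1 and replicates 2 and 3, 14 of the 28 were called lower and 6 higher, beside 12.1% and 26.3% of all genes, and the list's median was -0.22 against 0.09 over all genes. Among the partners, 5 were called lower and 1 higher, among the signalling and processing genes 6 lower and 4 higher, and among the relatives 2 lower and 3 higher.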

How the data were processed

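RNA-seq of 12 MV4-11 libraries, 3 per condition, was used. The authors deposited FPKM per gene in 1 table with human Ensembl identifiers. The submitters' processing notes list Bowtie 0.12.9, Cufflinks 2.1.1, HTSeq and DESeq2 and the mouse build mm10, with no role given. The labels name a miRNeasy extraction, Geo-seq amplification and a TruePrep library kit. Whether counting used strand is not given in the sources used here, so reads of antisense or overlapping genes cannot be told apart, and LILRB4 and the Siglec and LILR relatives have close paralogs among which reads may have been split. Symbols matched for 41461 of 43876 identifiers, and positions came from GENCODE release 29 (GRCh38), which holds 40169 of them. Depth was recovered from genes under 400 nucleotides, where 98.6% to 98.8% of 4457 to 5029 values per library were whole within 0.03 fragments. Counting intervals and floors cover counting error only.

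The test was limma 3.58.1 in R 4.3.3 on log2(FPKM + 1), a pseudocount of 1, for 18574 genes that reached 1 FPKM in 3 libraries or more, with 1 mean per condition over all 12 libraries, a trend of variance on mean, and p-values adjusted over all genes tested by Benjamini and Hochberg's method, called at an adjusted p under 0.05. The replicate contrast came from a fit of condition and replicate number. HAVCR2 and LILRB4 were taken from a fit without the filter, over the 43876 genes with a value above 0 in any library. The script was tested on simulated data. No 2 libraries were identical.

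All 18 same-numbered pairs correlated in their deviations from the condition means, from 0.165 to 0.657. Differently numbered pairs were not set beside them. A shift of replicate 1 alone moves replicates 2 and 3 together the other way. The check therefore cannot show that replicates 2 and 3 are each paired across conditions. Ratios within a replicate number and the block take a pairing as given, and the labels do not say what a number stands for. The members and lists were chosen with earlier results of these data known. The named genes are all members, from each list the gene with the smallest unadjusted p in each treatment against DMSO and in the replicate contrast, and the direct partners of the members. CD52 and CLEC11A were named after their values were seen. Alternatives were the replicate block, replicates 2 and 3 only, each library left out, other pseudocounts, filters, scalings and spread models.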

Additional observations from a re-analysis of the deposited data

How the results depend on the processing

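The treatment results turned mainly on the replicate number. With replicates 2 and 3 only, 2 of the 6 genes were called when Mito-Lipo was set against DMSO, 1 when Com was set against Mito-Lipo and 1 in the interaction, against 0 each over all replicates. In the same libraries the counts under an unadjusted p of 0.05 were 2 (Mito-Lipo), 1 (Gilteritinib) and 3 (Com) against DMSO, 1 in Com against Gilteritinib and 2 when Com was set against Mito-Lipo, beside 21.4%, 11.7%, 7.51%, 6.46% and 21.6% of all genes tested. The counts without overlap, which 2 libraries a side reach more easily, were 6, 6, 4, 4 and 2 in the same order, beside 50.6%, 45.8%, 40.9%, 35.3% and 48.6% of all genes. The log2 difference turned its sign there for CD38 in Mito-Lipo (-0.070), CD70 in Gilteritinib (-0.13) and CD47 in Com (-0.033) against DMSO, for CD33 (-0.074) and LILRB4 (0.039) in Com against Gilteritinib and for CLEC12A in Com against Mito-Lipo (-0.061), none of them called. With the replicate block the unadjusted counts were 2 in Mito-Lipo, 1 in Gilteritinib and 1 in Com, each against DMSO, and 1 for Com against Mito-Lipo, and the block changed no other call. Without the filter, where all 10 members were in the fit, 2 were under 0.05 unadjusted in Mito-Lipo against DMSO, beside 6.82% of 43876 genes. These were LILRB4 and HAVCR2, while CD70 was no longer under 0.05. In Gilteritinib against DMSO 1 was, LILRB4, beside 2.59%. Genes without overlap numbered 1 in Mito-Lipo against DMSO under median-ratio scaling and 1 under quantile normalization, beside 13.4% and 13.5% of all genes. At a mean FPKM of at least 5, where fewer genes were tested, they numbered 0 in Gilteritinib and 1 in Com against DMSO. The shares of the genes tested there were 6.44% and 5.51%. Scaling turned the sign of CD38 in Mito-Lipo (-0.0054 under median-ratio and -0.0055 under quantile normalization) and of CD47 in Gilteritinib (0.033 and 0.028). Replicate 1 against replicate 2 alone gave LILRB4 a difference of 0.034. The cause of these shifts was not tested.

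Leaving out 1 library in turn called 0 of 6 genes in every comparison between conditions. The unadjusted counts ran from 0 to 1 in Mito-Lipo against DMSO, at 0 without any 1 of the 6 DMSO and Gilteritinib libraries and at 1, CD44 in place of CD70, without Mito-Lipo replicate 1, from 0 to 1 in Com against DMSO (1 without Mito-Lipo replicate 1, Com replicate 2 or Com replicate 3) and from 0 to 1 in Com against Mito-Lipo (1 without Mito-Lipo replicate 1). Over all genes tested the unadjusted shares ran from 4.1% to 10.7%, from 1.37% to 2.38% and from 2.39% to 8.98% in these 3 comparisons. Genes without overlap ran from 3 to 5 in Mito-Lipo against DMSO (5 without Mito-Lipo replicate 1), from 1 to 4 in Gilteritinib against DMSO (4 without Gilteritinib replicate 1), from 1 to 3 in Com against Gilteritinib (3 without Com replicate 1) and from 0 to 1 in Com against Mito-Lipo. The shares of all genes were 13.6% to 32.2%, 6.57% to 28.4%, 6.2% to 24.5% and 9.34% to 29.8% in that order. The following differences crossed 0, none of them called. In Mito-Lipo against DMSO, CD47 ran from -0.11 to 0.065 and CD38 from -0.25 to 0.19. In Gilteritinib against DMSO, CD33 ran from -0.078 to 0.21, HAVCR2 from -0.035 to 0.12, CD47 from -0.18 to 0.090, CD38 from -0.47 to 0.11, CD44 from -0.10 to 0.27 and CD70 from -0.048 to 0.13. In Com against DMSO, CD33 ran from -0.0065 to 0.14, CD47 from -0.092 to 0.24, CD38 from -0.36 to 0.12 and CD44 from -0.032 to 0.31. In Com against Gilteritinib, CD33 ran from -0.14 to 0.15, CLEC12A from -0.14 to 0.075, HAVCR2 from -0.013 to 0.11, CD47 from -0.092 to 0.29, CD38 from -0.21 to 0.33 and CD44 from -0.093 to 0.21. In Com against Mito-Lipo, CLEC12A ran from -0.081 to 0.13, CD47 from -0.085 to 0.25, CD38 from -0.29 to 0.11 and CD70 from -0.57 to 0.24. In the interaction, CD47 ran from -0.085 to 0.29, CD38 from -0.22 to 0.37 and CD70 from -0.61 to 0.19. In the replicate contrast LILRB4 ran from -0.11 to 0.013. The 4 calls by replicate number were 4 to 5 under these settings, with CD70 also called without DMSO replicate 1 (0.89) or DMSO replicate 2 (0.67). HAVCR2 by replicate number was also called with a pseudocount of 0.1 and under quantile normalization.

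At these depths LILRB4 and HAVCR2 rested on as few as 4 and 11 fragments per library. Some libraries of a condition differed by more than counting error. For LILRB4 in DMSO, the Poisson intervals were 1.09 to 10.2 at 4 fragments and 18.6 to 40.5 at 28. For HAVCR2 in Mito-Lipo, they were 20.2 to 42.8 in replicate 1 and 86.8 to 128 in replicate 3. Intervals overlapped for LILRB4 in Mito-Lipo and for HAVCR2 in Gilteritinib and Com. The source of this spread was not tested. Separately, IL3RA and CD99 could not be compared, because 0 of the 11 protein-coding PAR1 genes reached FPKM 1 in any library.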

Other observations

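CD52, a small surface protein and antibody target of lymphoid and myeloid cells that stands in the list of other AML antigens, was named after its values were seen. It was at 0.478, 2.33 and 2.45 FPKM in DMSO, at 1.20, 15.8 and 20.0 in Mito-Lipo, at 0.583, 2.34 and 2.18 in Gilteritinib and at 0.881, 3.83 and 2.98 in Com. Replicates 2 and 3 of Mito-Lipo lay far above all other libraries, and replicate 1 was the lowest library of each condition. In Mito-Lipo against DMSO the log2 difference was 1.84 (SE 0.76; limma, unadjusted p = 0.0347, adjusted p = 0.585), and with replicates 2 and 3 only CD52 rose by 2.47 (adjusted p = 0.000712). Replicate 1 was lower than replicates 2 and 3 by -1.64 (limma, adjusted p = 0.00348).

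CLEC11A, a secreted lectin and a relative of CLEC12A, was also named after its values were seen. It was at 302.7, 259 and 267 FPKM in DMSO, at 300.7, 92.0 and 94.2 in Mito-Lipo, at 330.0 (replicate 1), 106 and 114 in Gilteritinib and at 319.6, 184 and 186 in Com. The replicate 1 libraries lay close together in all 4 conditions, while replicates 2 and 3 of every treatment lay below those of DMSO. Over all replicates the log2 difference from DMSO was -0.997 in Mito-Lipo (SE 0.50; limma, adjusted p = 0.680), -0.80 in Gilteritinib (adjusted p = 0.9999) and -0.31 in Com (adjusted p = 1), and none passed. With replicates 2 and 3 only, CLEC11A was lower than in DMSO by -1.49 in Mito-Lipo (limma, adjusted p = 0.000159), by -1.26 in Gilteritinib (adjusted p = 0.000732) and by -0.51 in Com (adjusted p = 0.0456). In the same libraries it was higher in Com than in Gilteritinib by 0.75 (limma, adjusted p = 0.00795) and than in Mito-Lipo by 0.98 (adjusted p = 0.000312), and the interaction was 2.24 (adjusted p = 0.000176), against 1.48 over all replicates (adjusted p = 0.9997). It was higher in replicate 1 than in replicates 2 and 3 by 1.06 (limma, adjusted p = 0.00474).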
